A study of Mus musculus with 6 samples.

Results

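The expression of 9 genes known as targets of BMP signalling was followed here in mouse embryos with and without Wnt3a. They include the Id genes Id1, Id2, Id3 and Id4 and the inhibitory Smad genes Smad6 and Smad7. The others are the homeobox genes Msx1 and Msx2 and the BMP pseudoreceptor gene Bambi. All 9 were taken by name, as every probe set that the array annotation assigns to 1 of these symbols. This gave 16 probe sets for 9 genes out of 45037 probe sets and 18193 annotated genes. The rule uses gene symbols alone. The tissue, the primitive streak with the node, was dissected at embryonic day 7.75 to 8 (0 to 2 somites) from embryos labelled Wnt3a null or Wnt3a wild type, both on a mixed C57BL/6 and 129/Sv background, and hybridised to Affymetrix mouse whole-genome GeneChips. Each array carried amplified RNA of 3 stage-matched embryos of 1 genotype, with 3 such pools per genotype. The null allele is not further described in the sources used here. Each probe set has 1 signal per array on a linear scale, and differences are given on the log2 scale as null minus wild type, so that positive values mean a higher signal without Wnt3a.

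Bone morphogenetic proteins (BMPs) are secreted ligands that bind paired serine/threonine kinase receptors, which phosphorylate Smad1, Smad5 and Smad9. These join Smad4 and enter the nucleus, where Id and Msx genes are among the best known targets. Id proteins bind basic helix-loop-helix factors, mainly the E proteins, and keep them off DNA. Smad6, Smad7 and Bambi act back on the pathway as inhibitors. In the gastrulating mouse embryo BMP signalling is known for its role in posterior, ventral and extraembryonic mesoderm and in germ cell formation. Wnt3a, made in the primitive streak, is required for posterior paraxial mesoderm, and the study asked which genes of the streak region depend on it.

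The sequence before the transcription start is shown for 3 of the 9 genes: Id2 and Msx1, whose brightest probe sets differed most between genotypes, and Id4, one of the members with a GC-rich Smad element. Sequences are from RefSeq, build GRCm38.p6, 5′ to 3′ on the gene's strand, and each holds the 250 bases before the annotated start. Capitals mark matches to any of 4 motifs searched on both strands, namely the GC-rich Smad element GGCGCC, the palindromic Smad-binding element GTCTAGAC, the TCF/LEF element CTTTGAT of the Wnt pathway and the E-box CANNTG. No 2 matches overlapped.
Id2, chr12:25096093-25096342, minus strand: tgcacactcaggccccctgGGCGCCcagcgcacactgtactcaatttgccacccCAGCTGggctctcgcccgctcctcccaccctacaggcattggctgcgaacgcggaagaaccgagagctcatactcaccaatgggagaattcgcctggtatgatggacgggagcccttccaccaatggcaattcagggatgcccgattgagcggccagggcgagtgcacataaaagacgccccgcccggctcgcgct
Id4, chr13:48260866-48261115, plus strand: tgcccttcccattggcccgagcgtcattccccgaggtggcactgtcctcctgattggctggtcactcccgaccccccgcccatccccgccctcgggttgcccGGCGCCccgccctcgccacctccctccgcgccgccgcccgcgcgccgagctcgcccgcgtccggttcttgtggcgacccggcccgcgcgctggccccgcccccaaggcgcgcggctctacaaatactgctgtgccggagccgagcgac
Msx1, chr5:37824586-37824835, minus strand: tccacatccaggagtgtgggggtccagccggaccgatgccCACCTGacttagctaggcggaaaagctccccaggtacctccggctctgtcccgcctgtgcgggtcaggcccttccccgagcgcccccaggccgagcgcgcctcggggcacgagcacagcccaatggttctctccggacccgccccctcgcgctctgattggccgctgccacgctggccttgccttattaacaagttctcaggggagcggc

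The fourth sequence is a 30-base window around the annotated start of Smad6, shown because it holds the 8-base palindrome, here from position -4 to 4 with the start at 1 and no position 0, followed by an E-box.
Smad6, chr9:64022045-64022074, minus strand: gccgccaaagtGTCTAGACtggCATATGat

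Promoter windows of 300 bases, from 250 before to 50 after the start, were matched for 6 of the 9 genes (Id2, Id3, Id4, Smad6, Msx1 and Msx2). GGCGCC was found in 2 of the 6 (Id2 and Id4) and in 11.9% of all 32851 promoter windows. The palindrome was found in 1 of the 6 and in 0.213% of all windows, the E-box in 4 of the 6 (Id2, Smad6, Msx1 and Msx2) and in 72.3%, and CTTTGAT in 0 of the 6 and in 3.73%. A match is a string of letters and says nothing about whether a factor was bound, and more distant elements lie outside these windows. The bases before the start were 61.6% (Msx2) to 75.6% (Id4) G or C in the 6 members, against a median of 52.4% over all promoters, which bears on how often a GC-rich string turns up.

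Some facts of the arrays touch the results below. Wild-type pool 1 stood apart in its sex composition, with a Y-linked Eif2s3y signal of 4.31 against 1053 to 1788 on the other 5 arrays. Null pool 1 shared part of this. Xist, a transcript of female cells, read 7440 in wild-type pool 1 and 5047 in null pool 1. It read 1871 to 2707 on the arrays of numbers 2 and 3. Gapdh signal from 3′ over 5′ probe sets was 2.09 to 2.39 without Wnt3a and 2.51 to 3.00 with it. The same ratio for Actb overlapped, at 2.38 to 3.83 without Wnt3a and 2.68 to 3.69 with it. The part of these ratios in the results was not tested. Pools that carry the same replicate number resembled each other; what they have in common is not stated in the labels. Of the dissected tissue's own markers, Foxa2 and Shh of the node had signals of 302 to 598 and 234 to 1517, and Evx1 of the streak 442 to 1524, all above the median signals of the arrays (73.7 to 86.4). Other node and streak markers did not all do so. Foxj1 (15.4 to 176) and Chrd (34.2 to 250) of the node fell below the medians on some arrays. Nog of the node (3.31 to 31.6) and Wnt3 of the streak (2.13 to 41.1) lay below them on every array. T and Noto are not listed in the annotation. The Wnt3a probe set was close to equal between genotypes (log2 difference -0.10), and whether it lies in the altered part of the gene is not given, so it does not check the labels. In bulk tissue, fewer cells of a type and less RNA per cell cannot be told apart.

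No BMP target gene passed the threshold. limma, fitted to all 45037 probe sets, called 0 of the 16 member probe sets at an adjusted p under 0.05 in either direction and 0 of all probe sets (0% lower and 0% higher). Before adjustment, 993 of all probe sets were lower and 1280 higher at p under 0.05. The smallest adjusted p among the members was 0.867. At an unadjusted p under 0.05, 1 member probe set was lower (of Msx1) and 1 higher (of Smad7), each 1 of 16, against 2.20% and 2.84% of all probe sets. The unadjusted counts were 1 lower and 2 higher with the replicate block, 2 lower and 4 higher with block, trend and robust options, and 0 in both directions when each gene was taken by its brightest probe set or by the mean of its probe sets. The shares of 2.20% and 2.84% belong to the fit without block. Shares over all probe sets were not counted for the block fits, so their member counts have nothing to be set against. The same 2 probe sets were the only members whose null and wild-type arrays did not overlap, where 4.41% of all probe sets lay wholly below and 5.57% wholly above wild type. By replicate number, 3 of 16 were lower in null in all 3 comparisons and 6 of 16 were higher, against 13.7% and 15.0% of all probe sets. The 3 lower ones are both of Msx1 and 1 of Msx2, and the last counts as lower by a log2 difference of only -0.000217 in number 1. These counts are small, and several probe sets of 1 gene share their transcript.

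**Figure D1:**
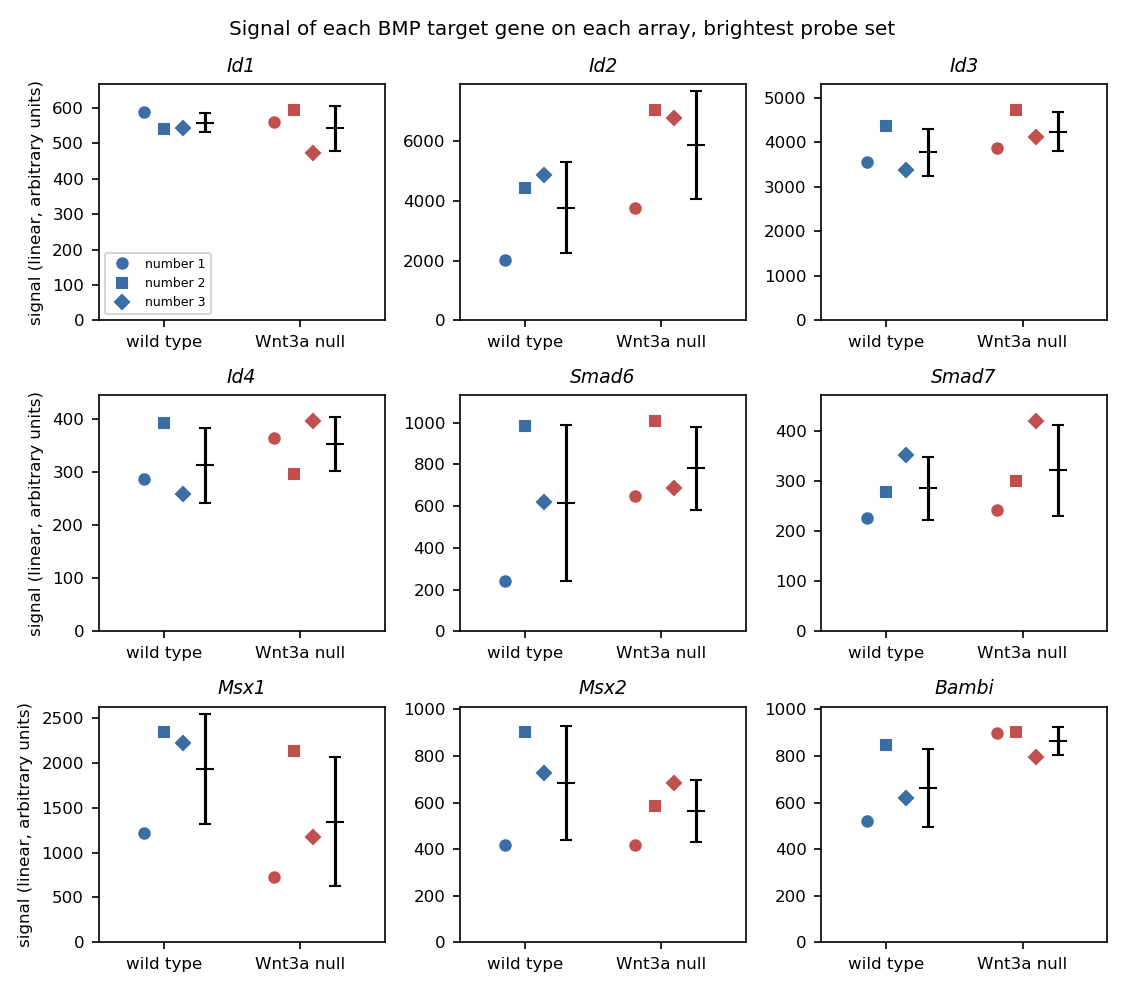
Signal (linear, arbitrary units, axis from 0) of the brightest probe set of each of the 9 genes on each of the 6 arrays, wild type in blue and Wnt3a null in red, with marker shape giving the replicate number and black bars the mean and SD (n = 3). In all 9 panels the arrays of the genotypes overlap, and the circles of number 1 are the lowest of their genotype in both groups for 5 genes.

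Among the brightest probe sets of the Id genes, that of Id2 had the largest difference, although, averaged over each gene's probe sets, Id4 (0.31) exceeded Id2 (0.20). It is an inhibitor of basic helix-loop-helix factors that is prominent in early mesoderm and ectoderm. Its brightest probe set (1435176_a_at) read 3763, 7032 and 6769 in null pools 1 to 3 and 2027, 4410 and 4855 in wild-type pools 1 to 3. Both number 1 pools were the lowest of their genotype, so that null pool 1 lay below wild-type pools 2 and 3, although the null pool was higher within each number, by 0.89, 0.67 and 0.48. The mean log2 difference was 0.68 ± 0.45 (SE), 1.60-fold, with a 95% interval from -0.45 to 1.81 (limma, adjusted p = 1.00). When limma blocked on replicate number with its trend and robust options, the same difference had an interval of 0.46 to 0.90 and an adjusted p of 0.0542, still not past the threshold. That fit called 22 of all probe sets (0.0488%) and 0 of the 16 members. Without wild-type pool 1 the Id2 difference was 0.28.

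The other Id2 probe sets did not follow the brightest one. The second (1422537_a_at) read 234, 90.7 and 240 in null and 182, 139 and 109 in wild-type pools, and differed in sign between numbers (0.36, -0.61 and 1.15). The third (1453596_at) read 65.8, 67.7 and 105 against 93.8, 113 and 98.5 (log2 -0.39). Over the 6 arrays the brightest had a Pearson r of -0.31 with the second and of -0.07 with the third.

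Id1 and Id3, the Id genes most often used as direct BMP readouts, stood close together between genotypes. Id1 (1425895_a_at) read 561, 594 and 472 in null and 589, 541 and 543 in wild-type pools. The lowest and the highest of the 6 values were both null, and the log2 difference was -0.05 ± 0.20 (SE), with an interval from -0.55 to 0.45 (limma, adjusted p = 1.00). Id3 (1416630_at) read 3872, 4730 and 4124 in null and 3568, 4373 and 3384 in wild-type pools. Null was higher within each number by 0.12, 0.11 and 0.29, the groups overlapped, and the mean difference was 0.17 with an interval from -0.36 to 0.71. For both genes the interval lies within 1 log2 unit (2-fold) of 0, as it does for 5 of the 16 member probe sets: these 2, 2 of Id4 and the brighter of Smad7.

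Id4, which is best known from the nervous system, had 3 probe sets. The brightest (1423259_at) read 365, 297 and 397 in null and 287, 392 and 260 in wild-type pools, higher in null in numbers 1 and 3 and lower in number 2, with a log2 difference of 0.19. The next (1450928_at) ran from 262 to 323 in null and from 201 to 312 in wild type, with a difference of 0.17. The dimmest (1423260_at) read 84.0, 175 and 137 against 105, 89.7 and 63.0, a difference of 0.59 whose interval includes 0. The direction of the means was alike in all 3, and none of the 3 had all numbers in 1 direction.

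Smad6 and Smad7 encode inhibitory Smads, which block receptor signalling and are induced by it as feedback; Smad7 also acts on the Nodal and TGF-beta branch. Smad6 (1422771_at) read 647, 1009 and 689 in null and 240, 986 and 619 in wild-type pools. Wild-type pool 1 was far below the other 5 arrays. The log2 difference within numbers was 1.43 in number 1 against 0.03 and 0.16 in numbers 2 and 3. The mean of 0.54 (interval -0.86 to 1.94, limma, adjusted p = 1.00) became -0.03 without wild-type pool 1 and 0.09 without both number 1 pools. With the block, trend and robust options its interval was 0.0036 to 1.08 (limma, adjusted p = 0.651).

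The 2 Smad7 probe sets differed. The brighter one (1423389_at) read 243, 300 and 421 in null and 227, 278 and 353 in wild-type pools. Within each number the null pool was slightly higher, by 0.10, 0.11 and 0.25, and the replicate number held 92.2% of the sum of squares over the 6 arrays against 6.41% for genotype. Its mean difference was 0.15 (interval -0.61 to 0.92), and -4.91e-05, or no difference, without wild-type pool 1. The dimmer one (1443771_x_at) read 116, 208 and 206 in null and 80.4, 84.7 and 87.6 in wild-type pools, with every null value above every wild-type value. Its difference of 1.02 ± 0.30 (SE), 2.03-fold, was the largest of the 16. It had an unadjusted p of 0.0154 and an adjusted p of 0.867 (limma). With the block, trend and robust options its interval was 0.35 to 1.69 (limma, adjusted p = 0.429). The suffix x marks an Affymetrix probe set with probes that can also match other transcripts, and the annotation lists no accession for it, so what it measured beside Smad7 is not known here. The 2 probe sets had a Pearson r of 0.54 over the 6 arrays, and their mean gave a difference of 0.59.

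Msx1 was the member with lower signals in null pools on both of its probe sets. It is a homeobox repressor expressed in BMP-exposed tissues such as the posterior streak derivatives and the edge of the neural plate. The brighter probe set (1448601_s_at) read 724, 2132 and 1172 in null and 1221, 2343 and 2214 in wild-type pools. Null was lower within each number, by log2 differences of -0.75, -0.14 and -0.92, but null pool 2 lay above wild-type pool 1. The mean difference was -0.60 ± 0.49 (SE), with an interval from -1.82 to 0.62 (limma, adjusted p = 1.00). Leaving out 1 array or 1 number at a time gave -1.01 to -0.23.

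The dimmer Msx1 probe set (1417127_at) read 110, 225 and 124 in null and 245, 321 and 288 in wild-type pools, so that every null value was below every wild-type value. The difference was -0.96 ± 0.34 (SE), 1.95-fold lower, with an unadjusted p of 0.0313 and an adjusted p of 0.969 (limma). Within numbers it was -1.16, -0.51 and -1.22. Both probe sets carry the same source accession in the annotation, had a Pearson r of 0.86 over the 6 arrays, and were farthest apart between genotypes in numbers 1 and 3. With the block, trend and robust options both had an adjusted p of 0.282 (limma). Their intervals were then -0.93 to -0.27 (brighter) and -1.49 to -0.44 (dimmer).

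Msx2, the close relative of Msx1, gave no such pattern. Its brighter probe set (1449559_at) read 419, 585 and 682 in null and 419, 904 and 728 in wild-type pools. Number 1 was equal to within rounding, number 2 differed by -0.63 and number 3 by -0.09, for a mean of -0.24 with an interval from -1.17 to 0.69, and -0.089 as the mean of both probe sets. The dimmer one (1438351_at) read 78.4, 146 and 65.8 against 126, 54.8 and 95.7, with opposite signs between numbers and a mean of 0.06. The 2 had a Pearson r of -0.54 over the arrays. Whether Msx1 and Msx2 differ in their response was not tested.

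Bambi, a membrane protein that resembles a BMP receptor without a kinase and dampens signalling, had 1 probe set (1423753_at). It read 897, 904 and 795 in null and 521, 846 and 620 in wild-type pools. The null values lay close together, and wild-type pool 2 was above null pool 3. Null was higher within each number, by 0.78, 0.10 and 0.36, and the mean of 0.41 had an interval from -0.22 to 1.04 (limma, adjusted p = 1.00). It was 0.25 without wild-type pool 1. With the block, trend and robust options the interval was 0.06 to 0.76, at an adjusted p of 0.588 (limma), not past the threshold.

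**Figure D2:**
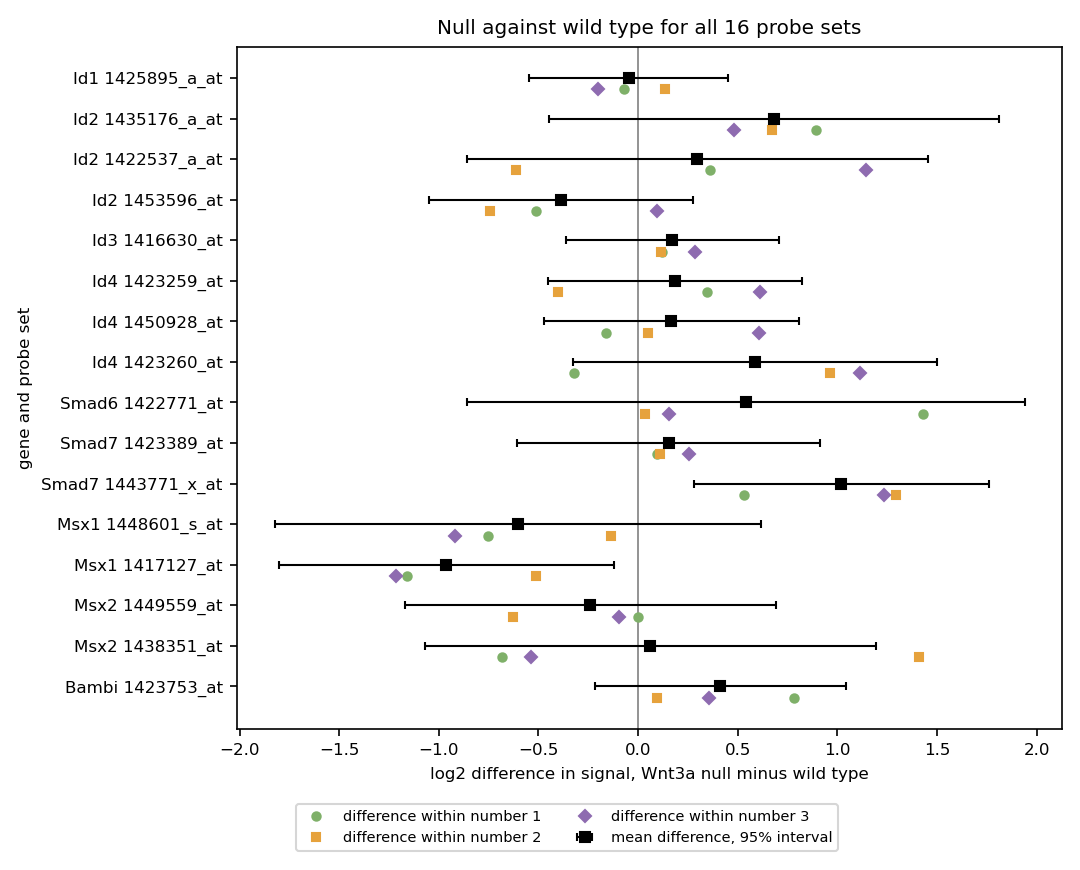
Log2 difference in signal, Wnt3a null minus wild type, for each of the 16 probe sets. Black squares and bars are the limma mean and 95% interval over all arrays, and coloured markers are the differences within replicate numbers 1, 2 and 3. In this fit without the block, only the intervals of Smad7 1443771_x_at and Msx1 1417127_at leave out 0, before adjustment.

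Taken by their brightest probe sets, 6 of the 9 genes had a higher and 3 a lower mean in null pools, with a median log2 difference of 0.17. Over all 18193 genes 50.8% were higher and the median was 0.00. Without wild-type pool 1 4 members were higher, 4 lower and Smad7 equal to within -4.91e-05, which was the median, while without both number 1 pools 6 were again higher. Of 9690 genes with a mean log2 signal of at least 7 (a signal of 128), 48.3% were higher with that pool and 48.1% without it. That pool was the lowest of the wild-type pools for 6 of the 9 genes. It was the lowest wild-type pool for 39.1% of those 9690 genes.

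The replicate number held a larger share of the variation in these genes than the genotype did. This direction is partly built in, because the number has more levels than the genotype and so takes up more variation by itself. For the 9 brightest probe sets the median share of the sum of squares over the 6 arrays was 65.8% for number and 15.4% for genotype. Over all 18088 probe sets with a mean log2 of at least 7 the medians were 58.6% and 10.4%, so most brightly measured probe sets shared this. Over all 45037 probe sets they were 45.1% and 11.9%. Number 1 was the lowest of its genotype in both groups for 5 of the 9 genes (Id2, Smad6, Smad7, Msx1 and Msx2), against 23.3% of the 9690 genes. For 6 genes, namely Id2, Id3, Smad6, Smad7, Msx1 and Msx2, the number held more than 60% of the sum of squares.

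**Figure D3:**
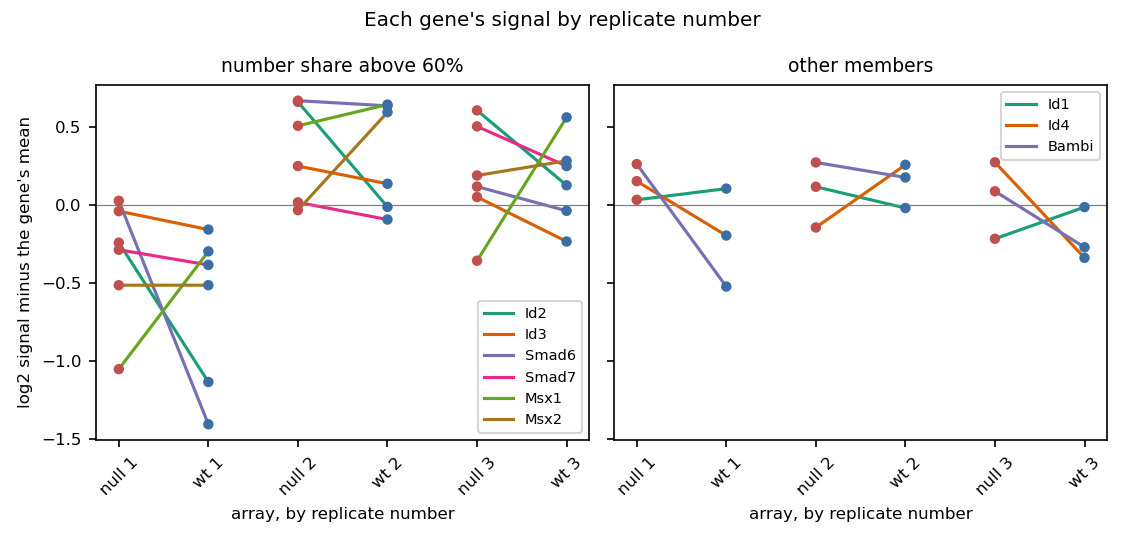
Log2 signal of each gene's brightest probe set minus that gene's mean over the 6 arrays, with arrays ordered by replicate number, null pools in red and wild-type pools in blue, and a line joining the pools of 1 number. On the left are the 6 genes in which the number held more than 60% of the sum of squares, 5 of them lowest at number 1 in both genotypes, and on the right are Id1, Id4 and Bambi.

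The genes whose brightest probe sets were most like each member over the 6 arrays, among 9689 genes with a mean log2 of at least 7, are given as a description; with 6 arrays and so many candidates, high values of r turn up for any gene. They hold for the brightest probe sets: with the mean of each gene's probe sets, 17 of the 18 values moved, by as much as from 0.992 to -0.72 for Msx2 with Eral1, and Smad7 with Acvr2a (0.932) was the exception. Id1 was most like N4bp1 (Pearson r = 0.986) and H2aj (0.983), and Id2 most like Ascc3 (0.992) and Kif18a (0.991). Id3 was most like Gnptab (0.993) and Dusp7 (0.988), and Id4 most like Npc1 (0.988) and Lrp2 (0.985). Smad6 was most like Uros (0.991) and Jmjd1c (0.990), and Bambi most like Dusp11 (0.986) and Pdcd6ip (0.984). Smad7 was most like Acvr2a (0.995), which encodes a receptor for activins and BMPs, and Caprin1 (0.983). Msx1 was most like Agbl5 (0.992) and Nkain1 (0.990), and Msx2 most like Actg1 (0.996) and Eral1 (0.992). Among the members themselves, the highest values were 0.86 for Smad6 with Bambi and 0.84 for Id2 with Smad6, and the lowest was -0.79 for Id1 with Smad7.

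The rest of the BMP pathway, given by each gene's brightest probe set, held no gene at an adjusted p under 0.05 (limma). At an unadjusted p under 0.05 there was 1 gene higher (Nog) and 0 lower among 47 genes of 6 lists, against 2.56% higher and 1.90% lower of all 18193 genes. Among 7 measured ligand genes 4 had a higher and 3 a lower mean, with a median log2 difference of 0.31. Bmp2, the ligand gene with the smallest p, read 1945, 655 and 499 in null and 437, 490 and 306 in wild-type pools, with all null values above all wild-type values and null pool 1 standing far above the rest. Bmp7 ran from 301 to 318 without Wnt3a and from 188 to 308 with it, and the mean of all its probe sets went the other way, at -0.63. Bmp8b was dim, at 6.19 to 69.1, with a difference of 0.056 as the mean of its probe sets. Bmp4, the main ligand of the posterior embryo, is known to drive Id and Msx genes; it read 503, 792 and 918 in null and 457, 1307 and 795 in wild-type pools. Its difference of -0.13 was -0.51 without wild-type pool 1 and 0.17 without both number 2 pools.

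Extracellular antagonists went both ways, with 5 of 9 higher and a median of 0.40. Fst, which encodes follistatin, an activin and BMP binding protein, read 5121, 2938 and 3194 in null and 6918, 5244 and 5065 in wild-type pools. It was lower in null within each number, by -0.65 on average (log2; limma, adjusted p = 1.00). Cer1, a secreted Nodal, BMP and Wnt antagonist of endoderm, had a difference of 1.30 (0.86 as the mean of its probe sets), with 265 to 1163 in null and 156 to 462 in wild type. Nog, whose product noggin binds BMPs, had a difference of 1.94 at signals of 3.31 to 31.6, near the bottom of the arrays. With 50 added to every signal it was 0.30, at an unadjusted p of 0.131 (limma), so that Nog no longer counted.

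Receptor and Smad genes were mixed in direction. The 6 receptor genes had log2 differences from -0.18 (Acvr2b) to 0.35 (Bmpr1b), with a median of 0.06; Acvr1 had 0.22 (0.44 as the mean of its probe sets), and Acvr2b turned to 0.39 as the mean of all its probe sets. The 10 Smads and cofactors had a median of -0.02, with 5 higher and 5 lower in mean. Their summed signal did not overlap, at 17114 to 17796 in null and 18745 to 19201 in wild type. However, 0 of the 10 genes lay wholly below wild type. Smad4 was the largest part of the sum, at 6776 to 7554 in null and 7545 to 8115 in wild type, which overlap. How often such sums separate was not counted. Zfp423, a zinc finger partner of BMP-activated Smads, ran from 595 to 782 without and 480 to 587 with Wnt3a (0.44, no overlap). Tob1, an antiproliferative protein that binds Smads, had 0.39 (0.19 as that mean). Smad1 read 3365, 2537 and 2970 against 4453, 3096 and 3665, a difference of -0.33 that was -0.017 as the mean of its probe sets. Smad5 (-0.24, interval -0.82 to 0.35) and Smad4 (-0.13, interval -0.59 to 0.33) were also lower in null within each number.

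Among 12 other genes known to respond to BMP, 6 were higher and 6 lower in mean, with a median of 0.03. Prdm1, a repressor needed for germ cells, ran from 312 to 334 without and 187 to 267 with Wnt3a (0.48, no overlap), while Tbx2 (1.87) and Atoh8 (0.90) differed at signals that did not exceed 57.1. The 3 E protein genes, partners of the Id proteins, had lower means: the log2 difference was -0.37 for Tcf4 and -0.18 for Tcf3 (-0.45 as the mean of its probe sets), both without overlap, and -0.12 for Tcf12, which turned to 0.03 as the mean of its probe sets.

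**Figure D4:**
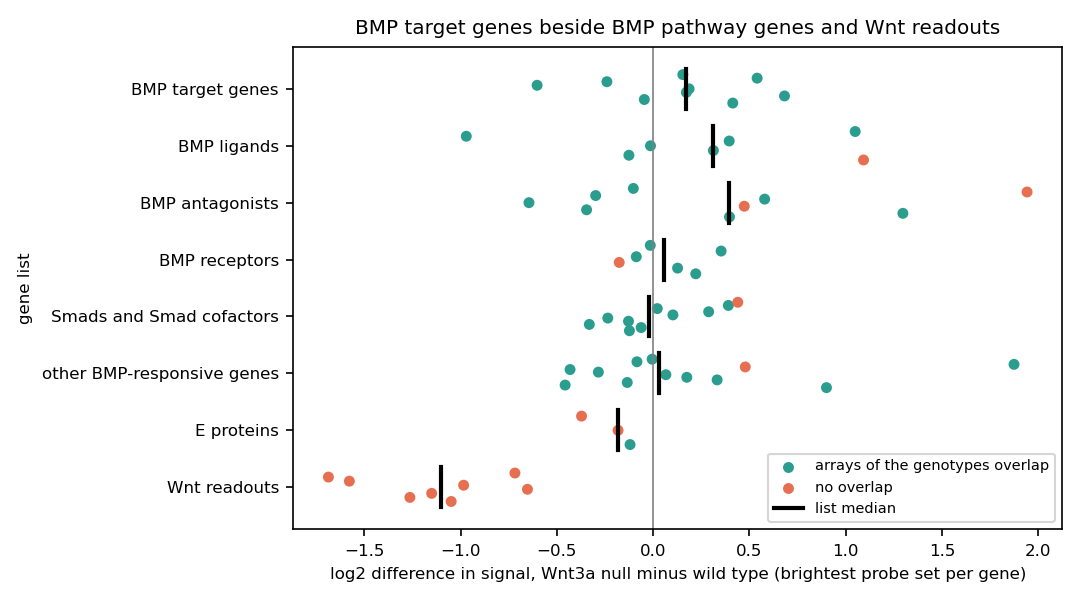
Log2 difference in signal, Wnt3a null minus wild type, of the brightest probe set of each gene, by gene list. Orange points are genes whose null and wild-type arrays do not overlap, and black bars are list medians, which lie at 0.17 for the BMP target genes and at -1.10 for 8 readouts of Wnt signalling.

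Readouts of Wnt signalling measured on the same arrays give the scale of these values. Axin2, the pathway's feedback inhibitor, had a log2 difference of -1.05 (-0.40 as the mean of its probe sets), Cdx1, a caudal homeobox gene, of -1.26 and Sp5, a zinc finger target, of -1.69. The list of 8 readouts was chosen with these results known. All 8 had every null value below every wild-type value, where 4.41% of all probe sets did, with a median of -1.10. Because of that choice, this count and median describe the list and test nothing. In limma without the block their smallest adjusted p was 0.344, and with block, trend and robust options the adjusted p was 0.00349 for Cdx1, 0.00827 for Axin2 and 0.0270 for Sp5, so these 3 passed the threshold there. None of the 9 BMP target genes did so by its brightest probe set, and the difference between the lists was not tested.

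Markers of some other cell types also differed in mean between genotypes, and their part in the values above was not tested. In limma without the block, 0 of these markers had an adjusted p under 0.05. With block, trend and robust options Irx3 of the neural plate list (limma, adjusted p = 0.00516) and Tbx20 of the heart list (0.0313) did. Of 7 neural plate markers 7 had a higher mean in null pools, and 5 lay wholly above wild type, against 5.57% of all probe sets. The summed signal of the 7 was 6824 to 7902 in null and 4153 to 5097 in wild type. Of 8 lateral plate and heart markers 6 were higher and 2 lay wholly above wild type, with sums of 4307 to 4998 against 2164 to 3703. The sums of extraembryonic mesoderm and allantois overlapped (5 of 6 higher, 2405 to 4254 against 1636 to 2613). So did those of surface ectoderm and amnion (5 of 8 higher, 17520.5 to 19345 against 15179 to 18144). Of the streak markers 5 of 6 were lower, with sums of 2837 to 3164 against 3858 to 6425, and of the node markers 4 of 6 were lower (904 to 1780 against 1103 to 2842). Visceral endoderm (5 of 6 lower, 35215 to 51342 against 29942 to 70251) and blood (5 of 5 higher, 249 to 541 against 188 to 408) overlapped. No marker was at 0; Gata1, Hba-x, Hbb-y and Klf1 of the blood list, Nkx2-5 and Tnnt2 of the heart list, Sox1, Wnt3, Foxj1 and Nog lay below the median signal.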

How the data were processed

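Per the labels' protocols, 30 to 50 ng of RNA of single embryos was amplified, and 600 ng from 3 embryos of a genotype was pooled for each array. The deposited values are 1 linear intensity per probe set and array. The submitters' processing notes name RMA, but the intensities are linear, with unequal distributions and a mean of 500 on every array after trimming 2% at each end; how they were made from the scans is not stated by those sources. Log2 was taken, 64 control probe sets were left out, and the other 45037 were fitted in R 4.3.3 with limma 3.58.1 (lmFit, eBayes, genotype only), two-sided, with Benjamini-Hochberg adjustment and a threshold of 0.05. The fit was checked on simulated data. Only probe sets with 1 gene symbol (34945) were named; 932 have several and 9160 are not listed. A gene's brightest probe set has the highest mean log2.

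The members and lists were chosen with earlier results of these data known. Named genes were the members, Axin2, Cdx1 and Sp5, the 3 genes of smallest p per pathway list and the 2 most alike per member; Bmp4 was added after its values were seen. Deviations from the genotype means correlated between pools of 1 number at 0.422, 0.454 and 0.282 over 18088 probe sets with a mean log2 of at least 7, above the bound of 0.1, and at 0.0537, 0.0524 and 0.0338 over all probe sets. The numbers were taken to pair the pools for the brighter probe sets. Alternatives were other probe set summaries, the block, trend and robust options, a filter, a pseudocount of 50, centring, cyclic loess and leaving out arrays; leaving out both pools of a number was added after seeing the data. Precision is limited by 3 arrays per genotype. The p-values set the genotype difference against the spread between pools, which limma moderates over all probe sets. Without the block that spread includes the differences between replicate numbers.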

Additional observations from a re-analysis of the deposited data

How the results depend on the processing

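With the replicate number as a block (pairing the pools), limma called 0 of all probe sets and 0 of the members, as without it. The block together with trend and robust options called 22 of all probe sets, and trend and robust options alone called 1, but 0 members in each case. Over all 9 alternatives that kept every array, and all 9 that left out 1 array or both of a number, the count of members called was 0 to 0. Of the named genes, 3 changed sign as the mean of all probe sets of the gene: Bmp7 (-0.63), Acvr2b (0.39) and Tcf12 (0.029). When arrays were left out, the ranges of the member differences that crossed 0 were -0.14 to 0.051 for Id1, -0.125 to 0.76 for Id2 1422537_a_at, -0.027 to 0.48 for Id4 1423259_at, -0.053 to 0.33 for Id4 1450928_at, -0.028 to 0.99 for Smad6, -0.059 to 0.34 for Smad7 1423389_at and -0.61 to 0.435 for Msx2 1438351_at. Those of Bmp8b (-0.17 to 1.99) and Bmpr1b (-0.0097 to 0.93) did so too. Of the 18 likeness values, 17 moved when probe sets were averaged per gene, and 2 with cyclic loess (Smad7 with Caprin1 and Msx2 with Actg1). The intervals of 11 of the 16 member probe sets reach beyond 1 log2 unit, and those of 7 of 16 do so with block, trend and robust options, so that a 2-fold difference in at least 1 direction lies within them.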
